A study of Canis lupus familiaris with 21 samples.

Results

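Macrophages take up oxidized lipids, haemoglobin complexes, microbes and dying cells through scavenger and mannose receptors, and they are a main source of C1q, the recognition component of the classical complement pathway. C1q, assembled from A, B and C chains, and the receptor MERTK both serve the silent removal of apoptotic cells. In a regressing skin tumor infiltrated by lymphocytes, these genes are commonly read as a sign of macrophages, although dendritic cells and Langerhans cells also express some of them.

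The counts of 10 such genes were examined among 21399 in canine cutaneous histiocytoma (CCH), a tumor of epidermal Langerhans cells in dogs that usually regresses without treatment. They were taken by symbol: C1QA, C1QB and C1QC, the apoptotic cell receptor MERTK, the lipid receptor TREM2, the class A scavenger receptors MSR1 and MARCO, the haemoglobin-haptoglobin receptor CD163, the mannose receptor MRC1 (CD206) and the lysosomal glycoprotein CD68. Each symbol had 1 entry in the deposited tables, and none of the 10 was chosen by a threshold on its values.

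QuantSeq 3′ sequencing, which reads fragments next to the poly(A) tail, was applied to formalin-fixed, paraffin-embedded tumors of privately owned dogs. Group 1 held 5 tumors of stage 1 (ages 0.5 to 5 years, given for 4 dogs) and group 2a held 5 tumor cell-rich areas of stage 2 tumors (0.6 to 3 years). Group 2b held 6 lymphocyte-rich areas of stage 2 tumors (0.3 to 6 years) and group 3 held 5 lymphocyte-rich samples of stage 3 (1.5 to 9 years). Single dogs gave all samples of groups 1, 2a and 3 and 2 samples of group 2b, while the other 4 of group 2b pooled tissue of 3 to 4 dogs. The dogs were of many breeds, no treatment or genotype was given for any group, and the groups held different dogs. The stage 2 areas had been picked under the microscope for their tumor cells or their lymphocytes, so lymphocyte genes set apart groups 2a and 2b by selection.

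The samples held 2113393 to 3559404 counted reads each. Group 1 had a DV200, the share of RNA fragments above a length limit, of 68.5% ± 2.46 (SD, 5 samples), against 73.7% ± 2.69 (SD, 5 samples) in group 2a (exact permutation p = 0.0159). Values of 74.6% ± 1.73 (SD, 6 samples) in group 2b and 73.2% ± 2.09 (SD, 5 samples) in group 3 did not differ detectably (exact permutation p = 0.223). The DV200 of group 3 replicate 5 was 71.2% in the sample labels and is higher in the paper's supplement. This test and the DV200 fits that include group 3 rest on the label value. T cell markers (12 genes) summed to 70.9 to 2465 normalized counts per sample in group 1, 591 to 1803 in group 2a, 3646 to 5342 in group 2b and 3913 to 5870 in group 3. The fibroblast marker COL1A1 was counted in every group, with group means from 7677 to 15964, so the samples were mixed tissue. In such bulk samples, fewer macrophages and less RNA per macrophage cannot be told apart.

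The 3 C1q genes lie side by side on chromosome 2 of UU_Cfam_GSD_1.0, in a cluster from 76042588 to 76063252. C1QB spans 76042588 to 76047706, C1QC 76052212 to 76056780 and C1QA 76060247 to 76063252. The annotation places a long non-coding RNA across the ends of C1QC and C1QA, and that RNA was not among the counted genes. MERTK lies on chromosome 17 (36515620 to 36628095) and TREM2 on chromosome 12 (10104147 to 10108997). MSR1 lies on chromosome 16 (40253347 to 40331889), MARCO on chromosome 19 (32420649 to 32465527) and CD163 on chromosome 27 (8402538 to 8433169). MRC1 lies on chromosome 2 (18038475 to 18133728), away from the C1q cluster, and CD68 on chromosome 5 (32709456 to 32711701). MSR1 overlaps a pseudogene and CD163 a long non-coding RNA, neither of which was among the counted genes. How reads on either strand were assigned is not given in the sources used here.

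The values below are normalized counts, the read counts divided by 1 size factor per sample, and they are compared between samples of 1 gene, not between genes.

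C1QA, the A chain gene, had 346, 2842, 997, 251 and 1265 normalized counts in the 5 samples of group 1. In group 2a the same gene had 1567, 514, 1437, 323 and 739. Among the lymphocyte-rich samples, C1QA ranged from 1034 to 2892 with a median of 1751 in group 2b and had 3298, 1481, 1811, 1916 and 2841 in group 3. The tumor cell-rich samples thus spread over an 11.3-fold range in group 1 and overlapped the lymphocyte-rich ones, whose lowest sample stood at 1034.

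C1QB, the B chain gene, had 154, 1529.6, 636, 134 and 576 normalized counts in group 1 and 876, 393, 701, 271 and 363 in group 2a. It lay between 834 and 1852 (median 1344) in group 2b and reached 2854, 1260.2, 1528, 2283 and 2281 in group 3. Only the lowest sample of group 2b fell within the range of group 2a, and group 1 overlapped the lymphocyte-rich groups through replicate 2.

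C1QC, the C chain gene, had 334, 2247, 938, 159 and 1052 normalized counts in group 1. Its values in group 2a were 1311, 252.2, 1189.7, 338 and 529.7. They ran from 1009 to 2515 (median 1578) in group 2b and were 2303, 1287, 1639, 2083 and 2755 in group 3. As with the other chains, group 1 replicate 2 lay among the lymphocyte-rich samples. Replicate 5 of group 1, at 1052, also lay above the lowest sample of group 2b, at 1009, and the remaining samples of group 1 lay below that sample.

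MERTK, a receptor tyrosine kinase that binds apoptotic cells through bridging proteins, had 2.83, 31.8, 2.73, 10.2 and 9.83 normalized counts in group 1 and 18.6, 3.13, 31.1, 2.34 and 14.5 in group 2a. Of these 10 samples, 4 rested on 3 reads or fewer. The range in group 2b was 26.1 to 105 (median 66.0), and the values in group 3 were 72.9, 43.4, 14.5, 55.4 and 38.7. Of the samples of group 2b, 5 lay above every tumor cell-rich sample.

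MSR1, a class A scavenger receptor for modified lipoproteins, had 16.1, 72.1, 69.2, 50.4 and 16.4 normalized counts in group 1 and 0, 19.8, 138, 39.8 and 70.7 in group 2a. Group 2b held values from 58.3 to 350.5 (median 199) and group 3 held 503, 138, 137, 66.5 and 257. High and low samples occurred in both lymphocyte-rich groups, and the zero in group 2a allows up to 3 counts.

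MARCO, a related receptor of tissue macrophages, was close to the smallest value this depth can show. It was at 0 in 3 of 5 samples of group 1 and 3 of 5 of group 2a, with highest values of 3.64 and 9.36 normalized counts. Group 2b ranged from 0 to 26.8 (median 17.3), and group 3 had 13.99, 16.04, 0, 13.1 and 6.28. TREM2, which signals through the adaptor TYROBP, was lower still, with at most 15.6 normalized counts in any sample. It rested on 3 reads or fewer in 3 samples of group 1, 4 of group 2a, 1 of group 2b and 3 of group 3, so its group means of 3.34 to 6.20 could not be set apart at this depth.

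CD163, a scavenger receptor of the cysteine-rich family, had 22.7, 165, 20.04, 13.4 and 16.4 normalized counts in group 1. Group 2a was narrow, with 41.7, 56.3, 48.9, 38.6 and 44.5. Group 2b ranged from 33.5 to 172 (median 52.9) and group 3 had 34.0, 69.8, 38.8, 29.2 and 50.3. All samples of group 2a thus lay above 4 of the 5 samples of group 1 and below replicate 2, the highest of group 1.

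MRC1, which binds mannose-bearing glycoproteins, had 136, 562, 239, 238 and 314 normalized counts in group 1 and 402, 198, 214, 117 and 205 in group 2a. Its range in group 2b was 108 to 348 (median 209.7), and group 3 had 141, 191, 113, 117 and 169. The ranges of the 4 groups overlapped throughout, with the lowest mean, 146 ± 33.6 (SD, 5 samples), in group 3.

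CD68, a glycoprotein of lysosomes and late endosomes that many phagocytes carry, had 331, 378, 160.3, 216 and 486 normalized counts in group 1 and 563, 168, 169, 578 and 381 in group 2a. Group 2b lay between 322 and 579.8 (median 533), and group 3 had 505, 288, 372, 619.6 and 478. No group stood apart.

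**Figure D1:**
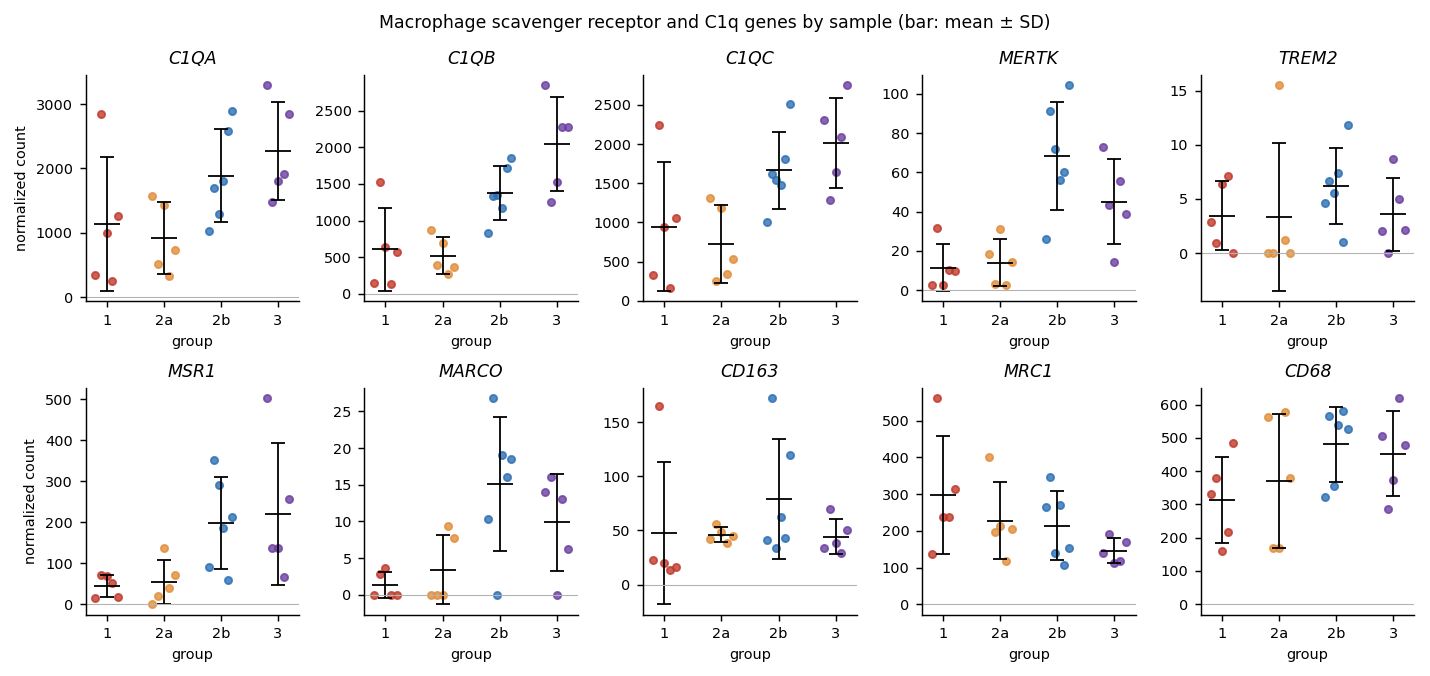
Normalized counts (y axis, linear, 1 scale per gene) of the 10 genes in each sample of groups 1, 2a, 2b and 3 (x axis); points are samples and black bars the mean ± SD. C1QB reaches 834 to 1852 in group 2b, where only the lowest sample overlaps group 2a, while CD68 and MRC1 overlap in all groups.

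Ordering the 4 groups by their mean, C1QA, C1QB, C1QC and MSR1 were highest in group 3, MRC1 was highest in group 1 and the other 5 genes were highest in group 2b. Of the 30 steps between neighbours in these orders, 6 were larger than the pooled SD, and the ranges overlapped at all 30. The 6 steps were C1QB from group 3 to 2b and from 2b to 1, C1QC from 2b to 1, MERTK and MARCO from 3 to 2a, and MSR1 from 2b to 2a. All other neighbours in the order differed by less than their spread. Group 1 replicate 2 had the highest value of its group for 7 of the 10 genes. The 19 macrophage and monocyte markers summed to 13123 normalized counts in that sample and to 4953 to 8343 in the other 4 of its group, and its 9 fibroblast markers summed to 50673 against 6319 to 39231. The part of these marker differences in the values of the 10 genes was not tested.

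The comparison of lymphocyte-rich with tumor cell-rich areas of stage 2 (group 2b against group 2a) showed higher counts of C1QB, C1QC and MERTK in the lymphocyte-rich areas. With edgeR's quasi-likelihood test, a gene was called when its p, adjusted by Benjamini and Hochberg's method over all tested genes, was no more than 0.05 and its log2 fold change (log2FC) was 1 or more in size. MERTK rose 4.84-fold, from 13.9 ± 11.9 (SD, 5 samples) to 68.3 ± 27.7 (SD, 6 samples) normalized counts, and its log2FC was 2.27 (SE 0.522) with edgeR adjusted p = 0.00850. C1QB rose 2.63-fold, from 521 ± 256 (SD, 5 samples) to 1377 ± 368 (SD, 6 samples), giving log2FC = 1.40 (SE 0.293) with edgeR adjusted p = 0.00489. C1QC rose 2.29-fold, from 724 ± 493 (SD, 5 samples) to 1662 ± 495 (SD, 6 samples), giving log2FC = 1.19 (SE 0.389) with an adjusted p of 0.0498 from edgeR, at the edge of the threshold. For these genes, 5 of 6 samples of group 2b lay above all samples of group 2a. Exact permutation tests of each gene on log2(normalized count + 1) gave p = 0.00649 for MERTK, 0.00433 for C1QB and 0.0130 for C1QC.

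Of the 9 genes tested in this comparison, 3 were called, all higher, and 9.55% of all 11545 tested genes were called (5.98% as higher). An unadjusted p under 0.05 was reached by 6 of the 9, against 30.0% of all genes. An exact permutation p of at most 0.05 was reached by 5 of the 10, against 29.4% of the tested genes. The groups overlapped for all 10 genes, while 10.5% of the tested genes did not overlap. The median log2 fold change was 1.19 over the 9 genes and −0.01 over all tested genes. TREM2 was not tested because of its low counts.

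The other 6 genes did not pass the threshold. C1QA had 1884 ± 723 (SD, 6 samples) against 916 ± 557 (SD, 5 samples) normalized counts, giving log2FC = 1.03 (SE 0.383) with edgeR adjusted p = 0.0819 and exact permutation p = 0.0346. MSR1 had 198 ± 113 (SD, 6 samples) against 53.6 ± 53.8 (SD, 5 samples), giving log2FC = 1.89 (SE 0.699) with edgeR adjusted p = 0.0824 and exact permutation p = 0.0173. For C1QA and MSR1, 4 of 6 samples of group 2b exceeded every sample of group 2a. MARCO had log2FC = 2.12 (SE 0.944) with edgeR adjusted p = 0.147, and 5 of 6 samples of group 2b exceeded group 2a. CD163, CD68 and MRC1 had log2 fold changes of 0.77, 0.37 and −0.09 with adjusted p = 0.209, 0.479 and 0.889 from edgeR. The receptors of the group thus spread from no detectable difference in MRC1 to the call of MERTK.

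Without each of the 11 samples in turn, C1QB and MERTK were called in all 11 fits, with log2 fold changes of 1.23 to 1.66 and 2.01 to 2.76. C1QC kept its call in 3 of the 11 fits, those without group 2a replicate 1 or 3 or group 2b replicate 1, and had an adjusted p of 0.0726 to 0.106 in the other 8. C1QA was called without group 2a replicate 1 or replicate 3, and MSR1 without group 2a replicate 3. With the 4 pooled samples alone in group 2b, C1QB and MERTK were called, and with the 2 single-dog samples alone none was, at log2 fold changes of 1.07 for C1QB (adjusted p = 0.255 from edgeR) and 2.06 for MERTK (adjusted p = 0.246 from edgeR).

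Lymphocyte markers moved with this comparison. Of the 11 tested T cell markers, 10 were called higher in group 2b, and of 9 tested B and plasma cell markers, 7. B and plasma cell markers summed to 149.7 to 1072 normalized counts per sample in group 2a and 1170.2 to 1931 in group 2b. CD4 and MS4A1 were at 0 in every sample of group 2a. The 19 macrophage markers summed to 4191 to 9200 in group 2a and 7099 to 10968 in group 2b, with none at 0 in all samples of a group, and the keratinocyte markers to 287 to 3476 and 211 to 2557. The part of the cell composition in the differences of C1q and MERTK was not tested.

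**Figure D2:**
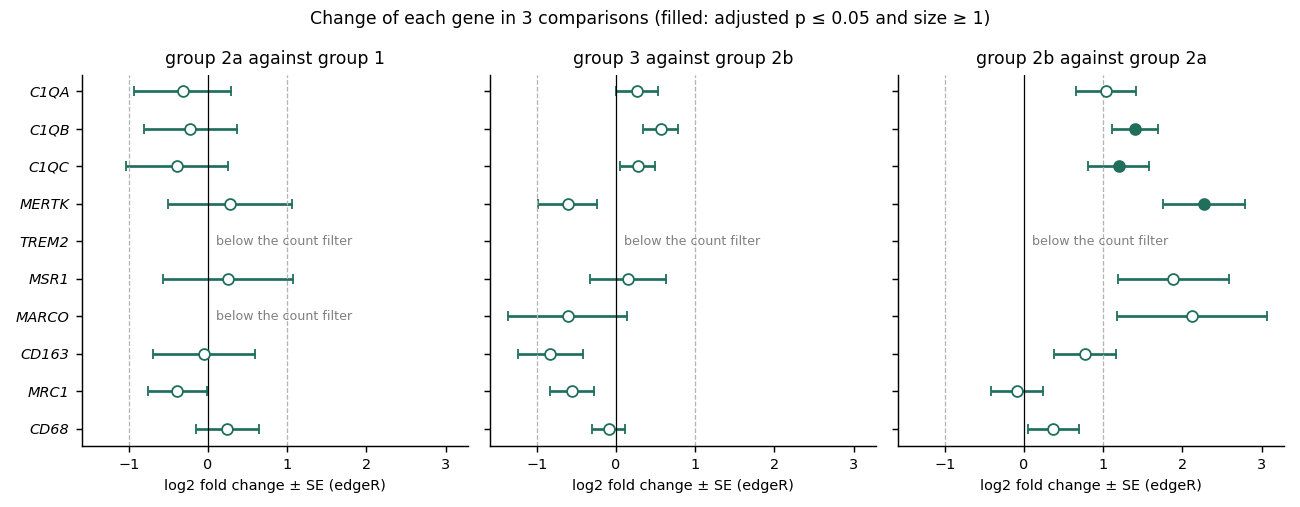
Log2 fold change (x axis) ± SE from edgeR for each gene (y axis) in 3 comparisons; filled points passed the adjusted p and the fold change threshold, and dashed lines mark a log2 fold change of 1 in either direction. The filled points are C1QB (1.40), C1QC (1.19) and MERTK (2.27) in group 2b against group 2a.

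The stage comparison of tumor cell-rich samples (group 2a against group 1) asked whether these genes differ between stages 1 and 2. Of the 8 genes tested with edgeR, 0 were called and 0 had an unadjusted p under 0.05, against 0.393% and 17.9% of all 11200 tested genes, and DESeq2 also called 0. The calls over all genes, 44 in number, ran from 0 to 78 when 1 sample was left out, with 78 without group 1 replicate 4. None of the 10 reached an exact permutation p of 0.05, as 17.7% of the tested genes did, and none was without overlap, as 5.65% were. The smallest adjusted p was 0.646, for MRC1 with log2FC = −0.39 (SE 0.377). C1QA, C1QB and C1QC had log2 fold changes of −0.32 (SE 0.617), −0.22 (SE 0.590) and −0.39 (SE 0.641). MERTK had 0.28 (SE 0.779), MSR1 0.25 (SE 0.821), CD68 0.25 (SE 0.399) and CD163 −0.05 (SE 0.641). On simulated counts of this design the test found 13.0% of genes changed 2-fold, so most changes of that size were not detectable. That share needed only an adjusted p of at most 0.05, without the fold change threshold of the calls.

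Group 1 replicate 2 decided the direction of several of these values. Without it, the log2 fold change was 0.36 for C1QA, 0.48 for C1QB and 0.22 for C1QC, with adjusted p from 0.708 to 0.900 from edgeR. That of CD163 became 1.35 (SE 0.283), with an adjusted p of 0.0829 from edgeR, so it still missed the threshold. Keratinocyte markers also moved with this comparison, as 10 of 13 tested ones had an unadjusted p under 0.05 and lower values in group 2a, though 0 were called by edgeR. Their sums per sample were 1069 to 15115 normalized counts in group 1 and 287 to 3476 in group 2a. The part of the keratinocyte markers in these values was not tested. The DV200 differed too, and with DV200 as a covariate in the edgeR fit the log2 fold changes were −1.15 for C1QA, −0.84 for C1QB and −1.51 for C1QC, with adjusted p from 0.749 to 0.853.

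The stage comparison of lymphocyte-rich samples (group 3 against group 2b) addressed the later course. Of 9 genes tested with edgeR, 0 were called, against 0.0428% of all 11685 tested genes, and DESeq2 also called 0. The calls over all genes, 5 in number, ran from 0 to 50 when 1 sample was left out, with 50 without group 3 replicate 3. C1QB alone had an unadjusted p under 0.05, as 13.1% of all genes did, with 2041 ± 642 (SD, 5 samples) against 1377 ± 368 (SD, 6 samples) normalized counts. Its log2FC was 0.56 (SE 0.223) with edgeR adjusted p = 0.306 and exact permutation p = 0.0714, and 3 of 5 samples of group 3 lay above all of group 2b. An exact permutation p of at most 0.05 was reached by none of the 10, against 13.1% of the tested genes. None was without overlap, against 2.11%. C1QA and C1QC had log2 fold changes of 0.26 (SE 0.264) and 0.27 (SE 0.220). The receptors CD163, MRC1, MERTK and MARCO had log2 fold changes of −0.83 (SE 0.412), −0.55 (SE 0.274), −0.61 (SE 0.371) and −0.61 (SE 0.755), with adjusted p from 0.408 to 0.783 from edgeR. MSR1 had 0.15 (SE 0.479) and CD68 −0.09 (SE 0.204). Between these groups B and plasma cell markers ran lower in group 3, 6 of 9 tested with an unadjusted p under 0.05 and 0 called by edgeR. Their sums were 176 to 1649 normalized counts in group 3 against 1170.2 to 1931. Keratinocyte markers ran higher in group 3, 8 of 12 tested with an unadjusted p under 0.05 and 0 called by edgeR, with sums of 814 to 8210.1 against 211 to 2557. The 3 tested neutrophil markers did so too, all 3 with an unadjusted p under 0.05 and 0 called by edgeR, with sums of 87.3 to 8862 against 119 to 955. The 8862 came from group 3 replicate 2 alone, and the next highest neutrophil sum of group 3 was 1551, in replicate 5. The part of these markers in the values of the 10 genes was not tested.

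Whether the stage contrast differed between lymphocyte-rich and tumor cell-rich samples was tested with all 4 groups in 1 edgeR fit. Of 9 genes, 0 were called, against 3.97% of all 12505 tested genes, and DESeq2 also called 0. The largest difference was that of MARCO, −1.92 on the log2 scale (SE 1.56, adjusted p = 0.533), and those of the C1q genes lay between 0.58 and 0.78 (SE 0.649 to 0.697). CD163 had a difference of −0.79 (SE 0.794, adjusted p = 0.635 from edgeR). Without group 1 replicate 2 this became −2.16 with an adjusted p of 0.0353 from edgeR, the only call among the 21 fits that left out 1 sample.

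C1QA, C1QB and C1QC summed to medians of 2571, 1632, 4555 and 6282 normalized counts in groups 1, 2a, 2b and 3. The share of C1QB in the C1q reads was 22.2% ± 2.84 (SD, 5 samples) in group 1 and 25.9% ± 5.42 (SD, 5 samples) in group 2a. In the lymphocyte-rich samples it was 28.3% ± 2.34 (SD, 6 samples) in group 2b and 32.2% ± 2.88 (SD, 5 samples) in group 3. C1QB thus made up 18.5% to 24.7% of C1q reads in the samples of group 1 and 29.0% to 36.3% in those of group 3. The samples of group 2a, at 21.1% to 33.9%, overlapped every other group, and those of group 2b lay between 25.5% and 32.2%. The share of C1QA was 42.6%, 41.8%, 37.7% and 35.7% in groups 1, 2a, 2b and 3, and that of C1QC 35.2%, 32.2%, 34.0% and 32.1%. This share was looked at after the values of the chains were known, so it is a description without a test. Counting error alone is small here, as the share of C1QB in group 1 replicate 1, with 883 C1q reads, was 18.5% with an exact Clopper-Pearson 95% interval of 16.0% to 21.2%. Such intervals cover counting error only, since no molecular identifiers were named.

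**Figure D3:**
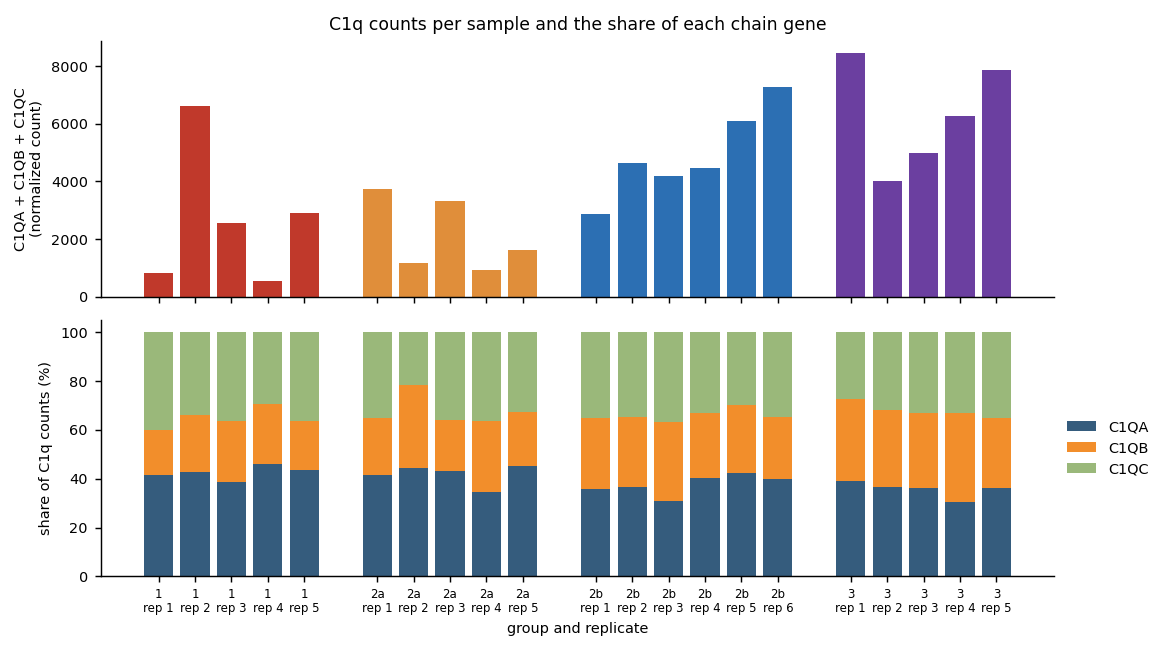
Summed normalized counts of C1QA, C1QB and C1QC (upper bars) and the share of each chain gene in percent of C1q reads (lower stacked bars) for each sample, ordered by group and replicate. Group 1 replicate 2 stands at 6618 among the lymphocyte-rich samples. The C1QB share runs from 18.5% to 24.7% in group 1 and from 29.0% to 36.3% in group 3, and group 2a, at 21.1% to 33.9%, overlaps both.

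How the genes varied together was described over all 21 samples after the group means were removed from log2(normalized count + 1), for the 8 genes with a mean normalized count of at least 20. These points share libraries and depth, and no test was made. The 3 C1q genes followed one another most closely. C1QA and C1QB had Pearson's r = 0.95 (Spearman's rho = 0.92), C1QA and C1QC r = 0.95 (rho = 0.96), and C1QB and C1QC r = 0.93 (rho = 0.95). For each C1q gene, the other C1q genes ranked first and second among 9971 genes of at least that level. The next gene was SLC36A4, an amino acid transporter, for C1QA (r = 0.85), COPB1, a coat protein of transport vesicles, for C1QB (r = 0.89), and SBF2 for C1QC (r = 0.88).

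MERTK followed C1QA at r = 0.66, rank 108 for MERTK. Closest to MERTK were TFEC, a transcription factor of myeloid cells (r = 0.84), VSIG4, a complement receptor of macrophages (r = 0.83), and the kinase NEK6 (r = 0.83). MSR1 had r between −0.02 and 0.01 with the 3 C1q genes, and these values rested on group 2a replicate 1, where MSR1 was at 0. Without that sample, left out after the data were seen, r was 0.36 to 0.40 over the other 20 samples. With all samples, r was −0.08 to −0.06 in the tumor cell-rich samples and 0.27 to 0.32 in the lymphocyte-rich ones. The nearest genes to MSR1 were CBX5, CFAP53 and KCNK5 (r = 0.71 to 0.74 over 21 samples and 0.50 to 0.73 without that sample). Closest to CD163 were TCN2, a vitamin B12 carrier, PRDX6 and NAMPT (r = 0.72 to 0.74), though by rank these were looser (rho = 0.45 to 0.65). LOC100686047, NAMPT and STAT3 stood closest to MRC1 (r = 0.77 to 0.78). COPB2, PRKACB and LRP10 stood closest to CD68 (r = 0.80 to 0.83).

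Relations of MRC1 and CD68 to C1q ran apart in the different areas. MRC1 and C1QA had r = 0.83 in the 10 tumor cell-rich samples and −0.34 in the 11 lymphocyte-rich ones. CD68 and C1QB had r = 0.09 in the tumor cell-rich samples and 0.78 in the lymphocyte-rich ones. The differences between these values were not tested. C1QA and C1QC were close in both, at 0.97 and 0.89.

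**Figure D4:**
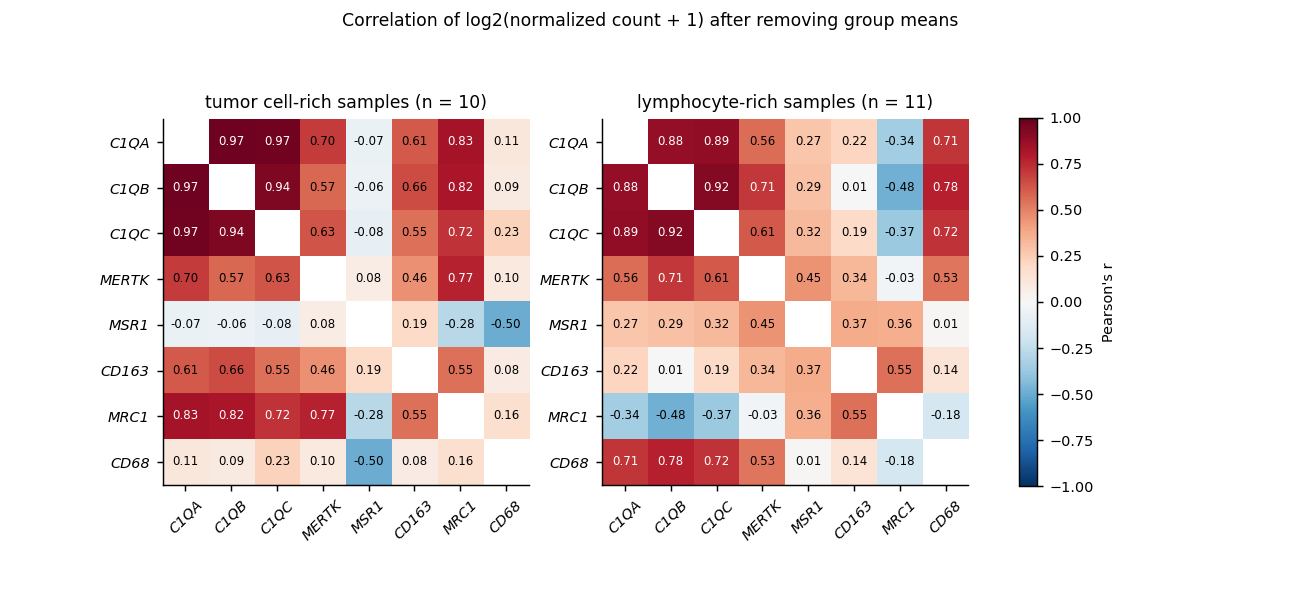
Pearson's r between the 8 genes in the 10 tumor cell-rich samples (left) and the 11 lymphocyte-rich samples (right), on log2(normalized count + 1) after removing group means; color runs from −1 (blue) to 1 (red). The C1q block is red on both sides, and MRC1 against C1QA is 0.83 on the left and −0.34 on the right.

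**Figure D5:**
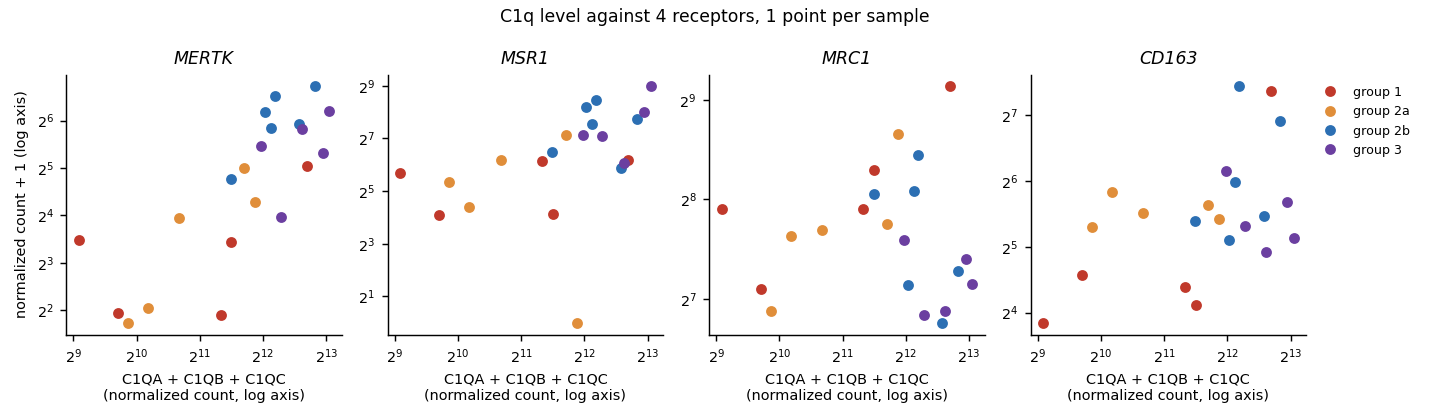
Summed C1q normalized counts (x axis, log scale) against the normalized count + 1 of MERTK, MSR1, MRC1 and CD163 (y axes, log scale), 1 point per sample, colored by group. Group means are not removed here, so the climb of MERTK with C1q includes the differences between groups. MRC1 and CD163 scatter widely over all samples, and 1 sample of group 2a stands at 0 for MSR1. After removing group means, Pearson's r with C1QA was 0.70 for MERTK, 0.83 for MRC1 and 0.61 for CD163 in the tumor cell-rich samples. In the lymphocyte-rich ones it was 0.56, −0.34 and 0.22.

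Genes of related pathways were counted from lists drawn up with earlier results of these data known. In group 2b against group 2a, of 11 other scavenger receptors tested, 3 were called higher and 1 lower, with a median log2 fold change of 0.95. For this and the next lists, the share called over all tested genes was 9.55% (5.98% as higher). CD5L, a soluble scavenger protein secreted by macrophages, rose from 19.3 ± 29.4 (SD, 5 samples) to 674 ± 427 (SD, 6 samples) normalized counts, giving log2FC = 5.14 (SE 0.812) with edgeR adjusted p = 0.000819. OLR1, the receptor for oxidized low-density lipoprotein, rose by 2.33, and the ferritin receptor SCARA5 by 1.18 on the log2 scale. SCARB1, the receptor for high-density lipoprotein, had a log2 fold change of −1.30 (adjusted p = 2.71e-05 from edgeR). Among 16 tested macrophage markers, whose median log2 fold change was 0.13, SPP1, which encodes osteopontin, rose by 1.87 on the log2 scale (adjusted p = 0.0486 from edgeR).

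Among 17 tested complement genes, 4 were called higher and 1 lower, with a median of 0.61. C3, the central component of the cascade, rose from 129 ± 148 (SD, 5 samples) to 830.5 ± 97.0 (SD, 6 samples) normalized counts, giving log2FC = 2.68 (SE 0.503) with edgeR adjusted p = 0.00241. CFB, the alternative pathway protease, rose by 2.08, the C5a receptor C5AR1 by 1.48, and C1S, a protease of the complex that C1q forms, by 1.09 on the log2 scale. CFD, another alternative pathway protease, had −1.49. The genes higher in group 2b thus included the C1 protease C1S and the alternative pathway protease CFB beside C1QB and C1QC, while CFD was lower.

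In the list of TREM2 signalling and ligands, 2 of 10 tested genes were called higher and 2 lower, with a median log2 fold change of −0.26. CLU, encoding the lipoprotein clusterin, rose by 2.48 and TREML2 by 2.09. TYROBP, the adaptor of TREM2 and other myeloid receptors, had 1411 ± 264 (SD, 6 samples) against 3051 ± 687 (SD, 5 samples) normalized counts, giving log2FC = −1.11 (SE 0.172) with edgeR adjusted p = 0.000725, and CARD9 had −1.33. TYROBP fell where MERTK, C1QB and C1QC rose. Of 13 apoptotic cell clearance genes, 0 were called higher and 1 lower, the integrin subunit ITGB5 (−1.74), with a median of −0.14. Lysosome genes had 0 of 14 called by edgeR, with a median of 0.30. At an unadjusted p under 0.05, 5 of them were higher and 0 lower, against 30.0% of all tested genes in either direction. The medians compare with −0.01 over all tested genes.

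In the stage comparisons these 5 pathway lists and the macrophage markers held 1 called gene. ABCA1, a cholesterol exporter also used after uptake of apoptotic cells, fell from 967 ± 162 (SD, 6 samples) in group 2b to 396 ± 108 (SD, 5 samples) in group 3, giving log2FC = −1.29 (SE 0.179) with edgeR adjusted p = 0.0228. STAB1, a scavenger receptor of macrophages and endothelium, had 104 ± 18.1 (SD, 5 samples) in group 3 against 54.6 ± 21.6 (SD, 6 samples) in group 2b, with an adjusted p of 0.193 from edgeR. Other uncalled genes of these lists had lower values in group 3. The scavenger receptors LRP1 and OLR1 had log2 fold changes of −1.07 and −1.03 (adjusted p = 0.400 and 0.365 from edgeR). Of the macrophage markers, LYZ, encoding lysozyme, had −3.08, FCGR1A, an Fc receptor, −1.17 and the integrin subunit ITGAM −0.85 (adjusted p = 0.116, 0.269 and 0.279 from edgeR). Over the 16 tested macrophage markers, 3 were lower and 2 higher at an unadjusted p under 0.05 from edgeR. Their median log2 fold change was −0.0002. C1QBP, TYROBP and GRN of the pathway lists had higher values in group 3, at 0.62, 0.49 and 0.45 (adjusted p = 0.109, 0.237 and 0.250 from edgeR). In group 2a against group 1, LYZ had 119 ± 160 (SD, 5 samples) against 14.3 ± 18.0 (SD, 5 samples), a log2 fold change of 3.08 (adjusted p = 0.128 from edgeR). The macrophage markers LYVE1 and VSIG4 went the other way, at −1.65 and −1.28 (adjusted p = 0.351 and 0.321 from edgeR). Over the 16 tested macrophage markers the median was −0.05. GAS6, a bridging ligand of MERTK, had 25.0 ± 10.7 (SD, 5 samples) in group 2a against 74.5 ± 42.4 (SD, 5 samples) in group 1, giving log2FC = −1.56 (SE 0.441) with an adjusted p of 0.101 from edgeR.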

How the data were processed

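Sample labels gave the groups and replicate numbers. Per the labels, the authors used Cutadapt, STAR, featureCounts and DESeq2, with versions, strand setting and treatment of multiply matching reads not given in the sources used here, and the UU_Cfam_GSD_1.0 assembly. The authors deposited raw counts per gene in 2 tables that hold the same values, and a normalized count, a signal that equals the raw count over the sample's size factor (0.855 to 1.27). The authors also deposited log2 fold changes from DESeq2 with their standard errors, and p-values with adjusted p-values, none of which was used. All 21399 genes were matched to RefSeq positions of that assembly.

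Raw counts of the compared groups were scaled by TMM and fitted with edgeR's quasi-likelihood model (version 4.0.16, R 4.3.3), keeping genes that reached 10 counts in 5 or more samples. Calls needed an adjusted p (Benjamini-Hochberg) no higher than 0.05 and a log2FC of 1 or more in size. For single genes, log2(normalized count + 1) was compared by an exact permutation test (2-sided), whose smallest p is 0.00794 for 5 against 5 samples and 0.00216 for 5 against 6. Standard errors were taken from the F statistic. Other steps ran in Python 3.11.15 with pandas 2.3.3, scipy 1.17.1, numpy 2.4.6 and matplotlib 3.10.9.

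The alternatives were DESeq2 1.42.0, upper-quartile factors, no count filter, no fold change threshold, a replicate block, a DV200 covariate, all 4 groups in 1 fit, only the pooled or single-dog samples of group 2b, leaving out each sample, and a pseudocount of 5 or either kind of area alone for the correlations. On simulated counts, the test recovered 76.5% of 200 genes with 4-fold changes when group 2a was set against group 1, 81.0% with group 3 against group 2b and 92.5% with group 2b against group 2a, and of 2-fold changes 13.0%, 39.0% and 28.0%. A simulated gene counted as recovered at an adjusted p of at most 0.05, without the fold change threshold.

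The 10 genes, the 5 pathway lists and the 9 marker lists were chosen with earlier results of these data known. Named are the 10 genes, every called gene of the lists, otherwise up to 3 per list and comparison with the largest change, and the 3 genes closest to each of the 10. One result of the marker lists is not reported here. The chain shares of C1q were added after the values were seen. Depth was 2113393 to 3559404 counts per sample, and a value on 3 counts or fewer was treated as at the floor.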

Additional observations from a re-analysis of the deposited data

Results flagged for a closer look

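In each group the highest and the lowest sample of each of the 10 genes was compared with the others by Dixon's ratio. This is the gap to the nearest sample divided by the range, taken on log2(normalized count + 1). Of 40 sets of values, 3 exceeded the 95% limit, where chance at 1 in 20 gives 2.

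CD163 in group 1 had replicate 2 at 165 normalized counts, far above the other 4 samples (ratio 0.796). MARCO in group 2b had replicate 3 at 0 counts, below the other 5 samples (ratio 0.728). This ratio depends on the log scale, which stretches the gap below the next lowest sample, replicate 1 at 10.3 normalized counts. TREM2 in group 2a had replicate 3 at 15.6 normalized counts, with the other 4 samples at 3 reads or fewer (ratio 0.724).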

How the results depend on the processing

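The stage comparisons gave 0 called genes among the 10 under every alternative run. In group 2b against group 2a the count was 3 as reported, 4 with DESeq2 or DV200 (C1QA added), 2 with upper-quartile factors, all 4 groups in 1 fit or the pooled samples alone, and 0 with the single-dog samples alone, where group 2b has 2 samples. Leaving out 1 sample gave 2 to 5, with 5 without group 2a replicate 3. For the difference of the stage contrasts the count was 0 to 1 (1 without group 1 replicate 2). The correlation of C1QA and C1QC was 0.95 as reported and 0.89 within the lymphocyte-rich samples, where the cause was not tested.

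The replicate numbers stand for different dogs, and samples of 1 number did not deviate together (correlations of −0.33 to 0.17). With the replicate block, 2 of the 10 genes were called in group 2b against group 2a, C1QC losing its call, and 0 elsewhere. In group 2a against group 1 the replicate block turned CD163 to 0.72, MSR1 to −0.29 and C1QB to 0.20 on the log2 scale, and MSR1 in the difference of the stage contrasts to 0.27.

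Other values that changed sign were never called, and the cause was not tested. With DV200, group 2a against group 1 gave 0.12 for CD163, −1.06 for MSR1 and −1.23 for MERTK, and the difference of the contrasts 0.49 for MSR1. The single-dog samples gave 0.025 for CD68 in group 3 against group 2b and 0.44 for MRC1 in group 2b against group 2a, and the pooled samples 0.17 for MRC1 in the difference. Leaving out 1 sample gave, in group 2a against group 1, −0.28 to 1.35 for CD163, −0.45 to 0.57 for MSR1, −0.60 to 0.36 for C1QA, −0.49 to 0.48 for C1QB and −0.72 to 0.22 for C1QC. It gave −0.23 to 0.034 for CD68 and −0.41 to 0.39 for MSR1 in group 3 against group 2b, −0.28 to 0.21 for MRC1 in group 2b against group 2a, and −0.52 to 0.13 for MRC1, −0.66 to 0.61 for MSR1 and −0.087 to 0.86 for C1QA in the difference. Over all genes, group 2a against group 1 had 44 calls with edgeR, 59 without the fold change threshold, 264 with DESeq2, 184 with all 4 groups in 1 fit and 0 with DV200 or the replicate block. Leaving out 1 sample gave 0 to 78. Group 3 against group 2b had 5 with edgeR, 13 without the fold change threshold, 47 with DESeq2, 0 to 50 without 1 sample, and between 0 and 4 under the other settings that kept all samples or only the pooled or single-dog ones. With the single-dog samples, group 2b against group 2a had 111 calls in place of 1102 and the difference of the contrasts 0 in place of 496, which became 58 with DV200. MARCO and TREM2 are limited by depth.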

Other observations

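Markers of other cells in group 2b against group 2a were counted from the same lists. Of 17 tested dendritic and Langerhans cell markers, 4 were called higher and 1 lower, against 9.55% of all tested genes called (5.98% as higher). At an unadjusted p under 0.05 from edgeR, 4 were higher and 5 lower, against 30.0% of all tested genes. The median log2 fold change of these markers was 0.10, so the list did not move in 1 direction. IRF8, a transcription factor of dendritic cell development, rose from 209.9 ± 85.9 (SD, 5 samples) to 834 ± 151 (SD, 6 samples) normalized counts, a log2 fold change of 1.98 (adjusted p = 0.000147 from edgeR). The chemokine receptors XCR1 and CCR7 rose by 2.47 and 1.86, and FSCN1, an actin-bundling protein of mature dendritic cells, by 1.68 on the log2 scale. FLT3, the receptor of a dendritic cell growth factor, had −2.55 (adjusted p = 0.00891 from edgeR).

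The neutrophil calgranulin S100A9 had 130.3 ± 62.0 (SD, 6 samples) normalized counts in group 2b against 798 ± 599 (SD, 5 samples) in group 2a, a log2 fold change of −2.62 (adjusted p = 0.00651 from edgeR). It was the 1 called gene among 3 tested neutrophil markers. Of 8 endothelial markers, CLDN5 was called higher (1.16). Keratinocyte (12 tested), fibroblast (8 tested) and mast cell (1 tested) markers had 0 calls by edgeR, with 2, 0 and 0 at an unadjusted p under 0.05.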
